A study of Rattus norvegicus with 20 samples.

Results

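The genes described here are those of smooth muscle and of the muscle actins: Acta1, Acta2, Actc1, Actg2, Myh11, Cnn1, Tagln and Des. They were found by the gene name printed beside each probe of a rat oligonucleotide array. Of the 8 genes, 6 had a probe under their own name, with 7 probes in all out of 41012 on the array, because Actc1 has 2. Acta2 and Myh11 had no probe by name and are not counted among the members measured, and probes described as Myosin-11 are given apart. The set was chosen by what is known of peritubular myoid cells and by the measured values of MEHP against Control testes, in which Actc1 was seen to be higher. Values of single genes in MEHP testes are therefore given as a description, with no p-value, and only counts over all genes are given from that test.

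The arrays measured RNA from foetal testes of Han Wistar rats. Dams were gavaged once a day, from gestation day 12 to day 19, with 500 mg/kg of DEHP, of MEHP, of TOTM or of EHO, and the Control dams received the corn oil vehicle alone. DEHP is di(2-ethylhexyl) phthalate, MEHP is mono(2-ethylhexyl) phthalate, and TOTM is tris(2-ethylhexyl) trimellitate. EHO is given here only by that label. The doses were equal by mass and so not by mole. Each of the 20 arrays held a pool of at least 6 testes from at least 3 pups of a litter, with 4 arrays in each of the 5 groups. The difference between MEHP replicates 1 and 2 was 0.921 times the noise between repeated spots, where the median pair within a group differed by 2.3 times that noise. Their mean was therefore taken as 1 sample, so that MEHP has n = 3 and each other group n = 4. Every group was hybridised on a slide of its own, so that slide and compound cannot be told apart.

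Actins are the filament-forming proteins on which myosin pulls. Acta1 and Actc1 encode the skeletal and cardiac alpha-actins of striated muscle, and Acta2 and Actg2 encode the vascular alpha and enteric gamma forms of smooth muscle. In the testis, smooth muscle proteins are known from the peritubular myoid cells, flat contractile cells that wrap the seminiferous cords, and from the walls of blood vessels. In a pool of whole testes, fewer cells of a type and less RNA per cell cannot be told apart.

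Because many muscle genes are known to be driven by serum response factor through a DNA element called the CArG box, the bases upstream of the start of Actc1 are shown beside those of Acta1, its striated relative, and of Actg2, the member whose levels ran closest to it. The sequences are RefSeq's on GRCr8, which held entries for 5 of the 6 measured members. Each is the 250 bases before the annotated start, on the minus strand, at chr3:121271828-121272077 for Actc1, chr19:68784195-68784444 for Acta1 and chr4:117594040-117594289 for Actg2. Capitals mark a CArG box or a CArG box with 1 G or C in its core, searched on both strands.
Actc1: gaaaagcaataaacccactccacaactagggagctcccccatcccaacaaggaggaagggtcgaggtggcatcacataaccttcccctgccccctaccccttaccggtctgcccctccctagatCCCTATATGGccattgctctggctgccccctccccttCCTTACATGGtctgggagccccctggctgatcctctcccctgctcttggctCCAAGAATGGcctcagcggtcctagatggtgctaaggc
Acta1: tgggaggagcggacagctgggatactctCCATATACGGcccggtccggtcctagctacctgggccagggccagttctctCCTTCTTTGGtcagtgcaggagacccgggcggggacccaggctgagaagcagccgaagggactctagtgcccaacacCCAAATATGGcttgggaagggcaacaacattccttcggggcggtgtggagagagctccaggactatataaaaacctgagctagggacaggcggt
Actg2: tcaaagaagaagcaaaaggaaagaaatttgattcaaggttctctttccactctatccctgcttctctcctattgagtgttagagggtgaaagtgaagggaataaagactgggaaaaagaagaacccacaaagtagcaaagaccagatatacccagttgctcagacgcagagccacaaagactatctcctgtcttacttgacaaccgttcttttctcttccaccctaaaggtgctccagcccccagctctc

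Acta1 held a full CArG box 94 bases before its start. Actc1 held its full CArG box just past the annotated start, beginning at base 3, in the stretch chr3:121271806-121271835 of the minus strand.
Actc1 at its start: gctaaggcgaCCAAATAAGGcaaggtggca
Neither form was found in the windows of Actg2, Des or Cnn1, which reach from 250 bases before to 50 after the start. Over all 33465 promoter windows of that length, 1.64% held the full element and 8.1% the form with 1 G or C. A match is only a description of these letters.

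All levels below are the log2 of the processed signal with the array's 75th percentile set to 0, so a level of 1 is 2 times that percentile. Levels of different probes are not set against each other, because probes differ in brightness. The 75th percentile of the processed signal was between 212 and 257 on EHO arrays and between 276 and 351 on Control arrays. The share of spots well above background was between 46.1% and 63.5% on EHO arrays and between 63.9% and 79.8% on all others, and the median difference from Control over all genes was -0.17 in EHO and between -0.05 and -0.04 in DEHP, MEHP and TOTM. All 9 Sertoli and all 8 Leydig marker genes on the array were well above background on all 4 Control arrays, as were all 7 peritubular markers from outside the set. A difference was called at an adjusted p under 0.05 in a limma fit over all genes.

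Actc1 had the largest difference from Control of the 6 members in EHO testes. It was read by 2 probes, and the brighter one, A_44_P524566 at chr3:99901912-99901971 (rn4, minus strand), was well above background on all 20 arrays and was the probe tested. Its levels were -0.49, -0.13, -0.18 and 0.13 in DEHP testes and 0.16, 0.13, 0.03 and 0.73 in TOTM testes. They were 1.17, 1.07, 0.93 and 1.10 in EHO testes and 0.91, 1.04, 0.66 and 1.12 in MEHP testes, against 0.10, -0.32, 0.04 and -0.08 in Control testes. Every EHO and every MEHP array was above every Control array. DEHP arrays spanned the Control range, while 3 of 4 TOTM arrays lay above all Control arrays, 2 of them by a small margin and replicate 4 by far.

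Actc1 rose in EHO testes, with a log2 difference from Control of 1.13 ± 0.16 (SE, 95% interval 0.79 to 1.48, adjusted p = 0.0013), a 2.19-fold difference. The call was lost when only EHO and Control arrays were fitted (adjusted p = 0.0669). The unscaled processed signals did not overlap either, at 457, 432, 478 and 525 on EHO arrays against 368, 213, 308 and 323 on Control arrays. In MEHP testes the difference was 0.99 ± 0.18 (SE, 95% interval 0.61 to 1.36), which is a description because the gene was chosen for it. The EHO and MEHP comparisons share the same Control arrays. The difference was 0.33 ± 0.16 in TOTM testes (adjusted p = 0.616) and -0.10 ± 0.16 in DEHP testes (adjusted p = 1.0), and neither was called. With TOTM replicate 4 left out, the TOTM difference was 0.17.

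**Figure D1:**
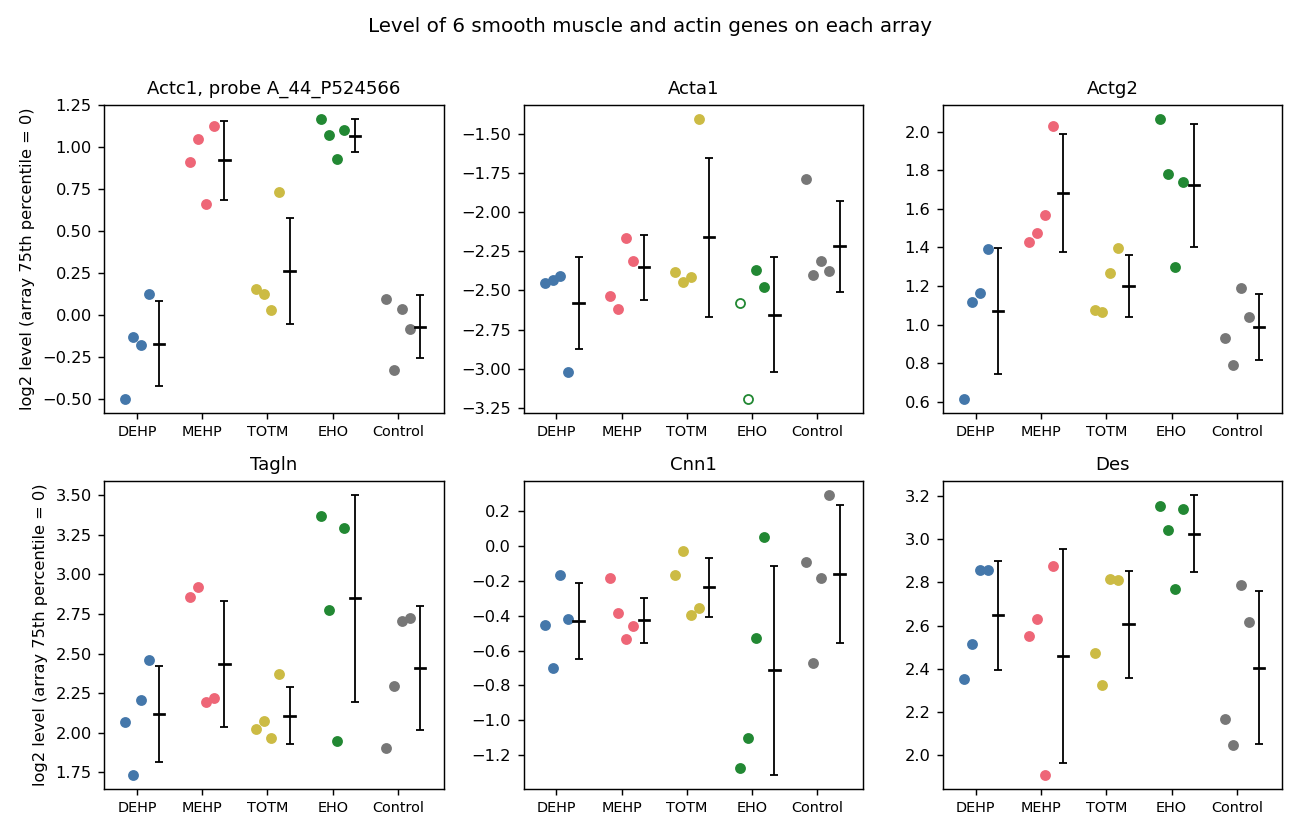
Level of 6 smooth muscle and actin genes on each array (log2 of the processed signal, array 75th percentile = 0), by group. Points are arrays, open points were not well above background, and the bar beside each group is its mean ± SD (n = 3 samples for MEHP, n = 4 elsewhere). For Actc1 the EHO and MEHP points all lie above the Control points, and for Cnn1 and Tagln the EHO points spread widely.

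Actg2, the gamma actin of enteric smooth muscle, had the pattern nearest to that of Actc1 among the members. Its levels were 0.62, 1.12, 1.17 and 1.39 in DEHP testes and 1.08, 1.06, 1.27 and 1.40 in TOTM testes. They were 2.07, 1.78, 1.30 and 1.74 in EHO testes and 1.43, 1.48, 1.57 and 2.03 in MEHP testes, against 0.93, 0.79, 1.19 and 1.04 in Control testes. All EHO and MEHP arrays were above all Control arrays, with EHO replicate 3 close to the highest of them. The levels in DEHP and in TOTM testes overlapped the Control range. Actg2 rose in EHO testes by a log2 difference of 0.74 ± 0.18 (SE, 95% interval 0.34 to 1.13, adjusted p = 0.0213). In MEHP testes the difference was 0.70 ± 0.20 (95% interval 0.27 to 1.12), again as a description.
The call in EHO was lost without Control replicate 1 (adjusted p = 0.0674), without EHO replicate 1 (adjusted p = 0.0698) and without EHO replicate 2 (adjusted p = 0.0576), with differences of 0.72, 0.62 and 0.72. It was also lost without both of EHO replicates 1 and 2, with a difference of 0.53 (adjusted p = 0.247). Before scaling, the Actg2 signals of EHO arrays, 854, 708, 616 and 819, overlapped those of Control arrays, 656, 459, 683 and 703.

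Des encodes desmin, the intermediate filament protein of muscle cells. Its levels were 3.15, 3.04, 2.77 and 3.14 in EHO testes, against 2.17, 2.05, 2.79 and 2.62 in Control testes. Before scaling, the Des signals overlapped more, at 1812, 1694, 1707 and 2162 on EHO arrays against 1542, 1101, 2068 and 2099 on Control arrays. After scaling the groups overlapped by EHO replicate 3 alone, and the difference of 0.62 ± 0.21 was called (95% interval 0.17 to 1.07, adjusted p = 0.0454). It lay close to the threshold, and leaving out any of 14 single arrays ended the call, with adjusted p up to 0.128. It was also lost under quantile normalization (adjusted p = 0.115), under normexp with quantile normalization (adjusted p = 0.0743), with the percentile over detected probes (adjusted p = 0.0978) or over unmarked spots (adjusted p = 0.0576), and with arrays weighted (adjusted p = 0.268). In all, 21 of 36 settings ended it. Without both of EHO replicates 1 and 2 the difference was 0.55 (adjusted p = 0.346). In MEHP testes Des ranged widely, at 2.55, 2.63, 1.91 and 2.87, with a difference from Control of 0.05. The Des differences of 0.24 in DEHP testes and 0.20 in TOTM testes were not called.

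Tagln encodes transgelin, an actin-binding protein that appears early in smooth muscle. Its levels were 3.37, 2.78, 1.95 and 3.29 in EHO testes, against 1.90, 2.29, 2.71 and 2.72 in Control testes. EHO held both the highest value of all arrays and, in replicate 3, one of the lowest, and the difference of 0.44 ± 0.28 was not called (adjusted p = 0.227). Without EHO replicate 3 it was 0.74 and was called (adjusted p = 0.0217). In MEHP testes the levels were 2.86 and 2.92 in replicates 1 and 2, which count as 1 sample, and 2.19 and 2.22 in replicates 3 and 4.

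Cnn1, the gene of calponin 1, which binds actin and dampens myosin activity in smooth muscle, ran the other way. Its levels were -1.28, -1.10, -0.53 and 0.05 in EHO testes, against -0.09, -0.67, -0.18 and 0.29 in Control testes. The difference of -0.55 ± 0.24 was not called (95% interval -1.07 to -0.03, adjusted p = 0.091). The low values were those of EHO replicates 1 and 2, the arrays with the fewest spots well above background (46.1% and 50.4%), and replicate 4 was above 3 of 4 Control arrays. Without EHO replicate 4 the difference was -0.81 (adjusted p = 0.0082), and without both of the dimmest EHO arrays it was -0.08.

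Acta1, the skeletal alpha-actin, had a dim probe. Its levels were -2.58, -3.19, -2.37 and -2.48 in EHO testes, of which replicates 3 and 4 were well above background, against -1.78, -2.40, -2.31 and -2.38 in Control testes. The difference of -0.44 ± 0.24 was not called (adjusted p = 0.167) and rests in part on arrays where the probe was not well above background. It turned to 0.12 under quantile normalization, 0.10 under median scaling and 0.03 under normexp with quantile normalization. Acta1 was highest on TOTM replicate 4 (-1.40) and Control replicate 1 (-1.78), and lay between -3.19 and -2.16 on the other arrays. In DEHP testes the levels were -2.45, -2.43, -2.41 and -3.02, all below the Control arrays, as 1 of 6 members where 2.79% of all genes did not overlap in either direction, and the difference of -0.36 ± 0.24 was not called (adjusted p = 1.0).

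Counted together, 3 of the 6 members with a probe were called in EHO testes, all higher, where 24.9% of the 23953 genes tested were called, 6.75% higher and 18.1% lower. Without EHO replicates 1 and 2, the arrays with the fewest spots well above background, 1 of the 6 was called, where 0.914% of all genes were. For 2 of the 6, every EHO array was above every Control array, as was so for 6.5% of genes complete on all arrays. The median difference over the 6 members was 0.53, against -0.17 over all genes. No member was called in DEHP testes, where 0.00417% of genes were called, nor in TOTM testes, where 0.00835% were. At an unadjusted p under 0.05, 579 genes passed in DEHP and 1970 in TOTM, and none of the members was among them. In MEHP testes 0.981% of genes were called, and every MEHP array was above every Control array for 3.08% of genes and for 2 of the 6 members. Nothing is read from these counts, because the members were chosen with that contrast in view. Member differences from Control in MEHP ran from -0.26 for Cnn1 to 0.99 for Actc1.

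**Figure D2:**
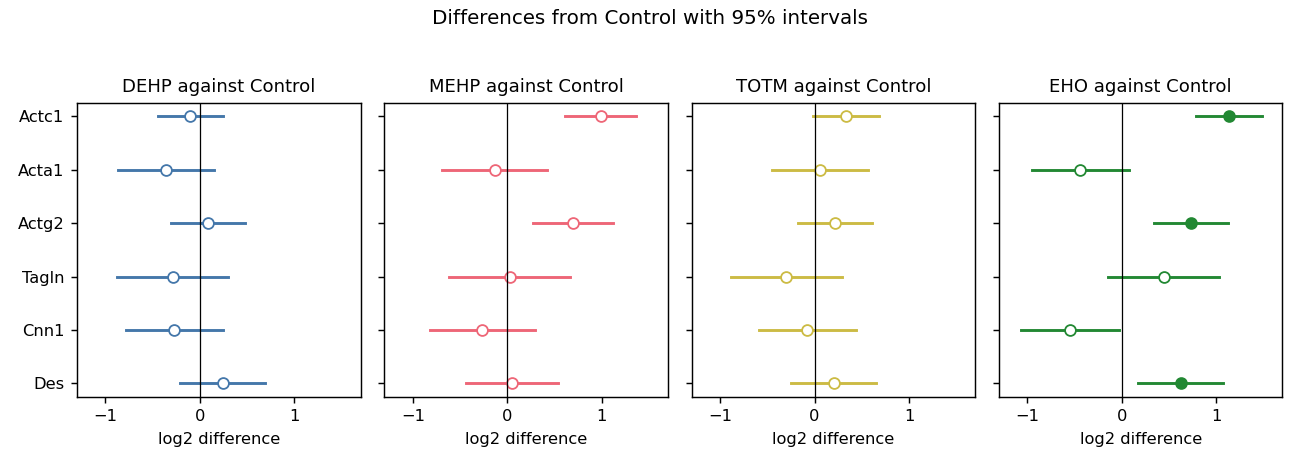
Log2 difference from Control of each member in DEHP, MEHP, TOTM and EHO testes, with 95% intervals from the limma fit. Filled points were called at an adjusted p under 0.05, and MEHP was not tested. Actc1, Actg2 and Des are filled in EHO, at 1.13, 0.74 and 0.62, and no point is filled in DEHP or TOTM.

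Compounds were also set against each other, at the common dose by mass and over the same days. TOTM, DEHP and EHO gave 3 pairs, with p-values adjusted over all genes and the 3 pairs together. Actc1 was higher in EHO than in DEHP testes by 1.23 ± 0.16 (95% interval 0.89 to 1.58, adjusted p = 0.000597) and higher in EHO than in TOTM testes by 0.80 ± 0.16 (95% interval 0.46 to 1.15, adjusted p = 0.0107). In both pairs all 4 EHO arrays were above all arrays of the other compound, as was so for 7.27% and 10.4% of all genes. Without EHO replicates 1 and 2 the difference from TOTM was 0.75 and was no longer called (adjusted p = 0.0885). Actc1 was the 1 member of 6 called in each of these pairs, where 5.88% and 9.91% of all genes were called.

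Actg2 missed the threshold against DEHP by little, with a difference of 0.65 in EHO testes (95% interval 0.26 to 1.04, adjusted p = 0.0507), and its difference from TOTM was 0.52 (95% interval 0.13 to 0.91, adjusted p = 0.0929). Tagln had larger EHO differences, also not called, of 0.73 from DEHP (95% interval 0.14 to 1.32, adjusted p = 0.107) and 0.74 from TOTM (95% interval 0.15 to 1.33, adjusted p = 0.105). Without EHO replicate 3, the EHO differences of Tagln and Actg2 were called in both pairs, at 1.03 and 1.04 for Tagln and 0.79 and 0.66 for Actg2. In each pair 4 of the 6 members were higher in EHO and the rest lower. Between TOTM and DEHP, which both carry 2-ethylhexyl ester groups on a benzene ring and differ in the number of those groups, no member was called, where 0.371% of all genes were. The Actc1 difference of TOTM over DEHP was 0.43 with a 95% interval of 0.08 to 0.78 (adjusted p = 0.108), and that of Actg2 was 0.13 with an interval of -0.26 to 0.52. MEHP, the monoester formed from DEHP in the body, is described without a test. Its Actc1 level was above that of its diester DEHP by 1.09 (95% interval 0.71 to 1.46), and EHO stood above MEHP by 0.15 (95% interval -0.23 to 0.52).

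The levels of Actg2 and Actc1 ran together over the 19 samples, with a Pearson r of 0.888, given as a description of samples that share groups and slides. The same measure was 0.538 for Tagln, 0.511 for Des, -0.09 for Acta1 and -0.342 for Cnn1. Among 6951 other named genes well above background on all arrays, those most like Actc1 were Rasgrf1 (r of 0.926), Or4f7c (0.918), Spsb4 (0.916), Or9i1b (0.908) and Calca (0.907). Calca encodes calcitonin and its related peptide, and Rasgrf1 a nucleotide exchange factor for Ras. Or4f7c and Or9i1b are olfactory receptor genes. Calca averaged 0.62 in DEHP, 1.37 in MEHP, 0.88 in TOTM and 1.55 in EHO testes, against 0.79 in Control testes.

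The second Actc1 probe, A_44_P480120, gave another picture. The files place it at chr3:99901022-99901039 (rn4, minus strand), a printed span of 18 bases that was not checked by aligning the probe. It was well above background on only 5 of 20 arrays, with levels of -1.93 on MEHP replicate 3, -0.58 on TOTM replicate 4, -1.04 on EHO replicate 1 and -1.40 and -2.18 on Control replicates 1 and 2. On the other 15 arrays it lay between -5.42 and -3.74. These arrays come from 4 groups, and the other Actc1 probe was not high on the 2 Control arrays, at 0.10 and -0.32.

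The whole striated muscle list did not follow the second probe on all 5 arrays. Of its 43 probes, 22 were above the median of the other 15 arrays on MEHP replicate 3, 27 on TOTM replicate 4, 10 on EHO replicate 1, and 39 and 18 on Control replicates 1 and 2. On EHO replicate 1, 14 of the 43 were below all 15 other arrays and 4 above them. A few genes, picked after their values were seen, were high on the same arrays as the second probe. Myl11, a myosin light chain of fast skeletal muscle, was at -0.15 on MEHP replicate 3, 1.08 on TOTM replicate 4, 0.28 on EHO replicate 1 and 0.50 and -0.25 on Control replicates 1 and 2, and between -1.08 and -0.39 on the other 15. Tnni2, the fast skeletal troponin I, was highest of all on TOTM replicate 4 (-0.06) and EHO replicate 1 (-0.26). It came next on EHO replicate 2 (-0.55), where the second probe was not well above background. On MEHP replicate 3 and Control replicates 1 and 2 Tnni2 stood at -0.59, -0.60 and -0.69. One probe of Myh3, the embryonic skeletal myosin heavy chain, stood at 2.32 on TOTM replicate 4, 1.81 on EHO replicate 1 and 1.82 on Control replicate 1. The other Myh3 probe, A_44_P472954, stood at 1.42, 0.57 and 1.17 on the same arrays. Over the whole list, 33 striated genes had a probe and between 18 and 31 were well above background on an array. Their summed level, in multiples of the array's 75th percentile, was between 60.9 and 88.4 in DEHP, 40.0 and 91.8 in MEHP, 66.7 and 90.6 in TOTM and 52.4 and 71.2 in EHO, against 72.1 and 94.5 in Control. Myh6, the cardiac alpha myosin heavy chain, added more to this sum than any other gene on every array. It stood at 3.48 and 3.70 on MEHP replicates 1 and 2 and at 5.54 and 5.49 on MEHP replicates 3 and 4. Myh7, also on the list, stood at 2.34, 2.48, 4.27 and 4.27 on MEHP replicates 1 to 4. Of the muscle determination genes, Myod1 was well above background on 7 arrays, Myf5 on 4, Myf6 on 0 and Myog on 15, with Myog highest on TOTM replicate 4 (-1.17), Control replicate 1 (-1.60) and DEHP replicate 1 (-1.62). The part of striated muscle RNA in the Actc1 levels was not tested. The brighter Actc1 probe stood at 1.17 on EHO replicate 1 and between 0.93 and 1.10 on EHO replicates 2 to 4, where the second probe was not well above background.

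**Figure D3:**
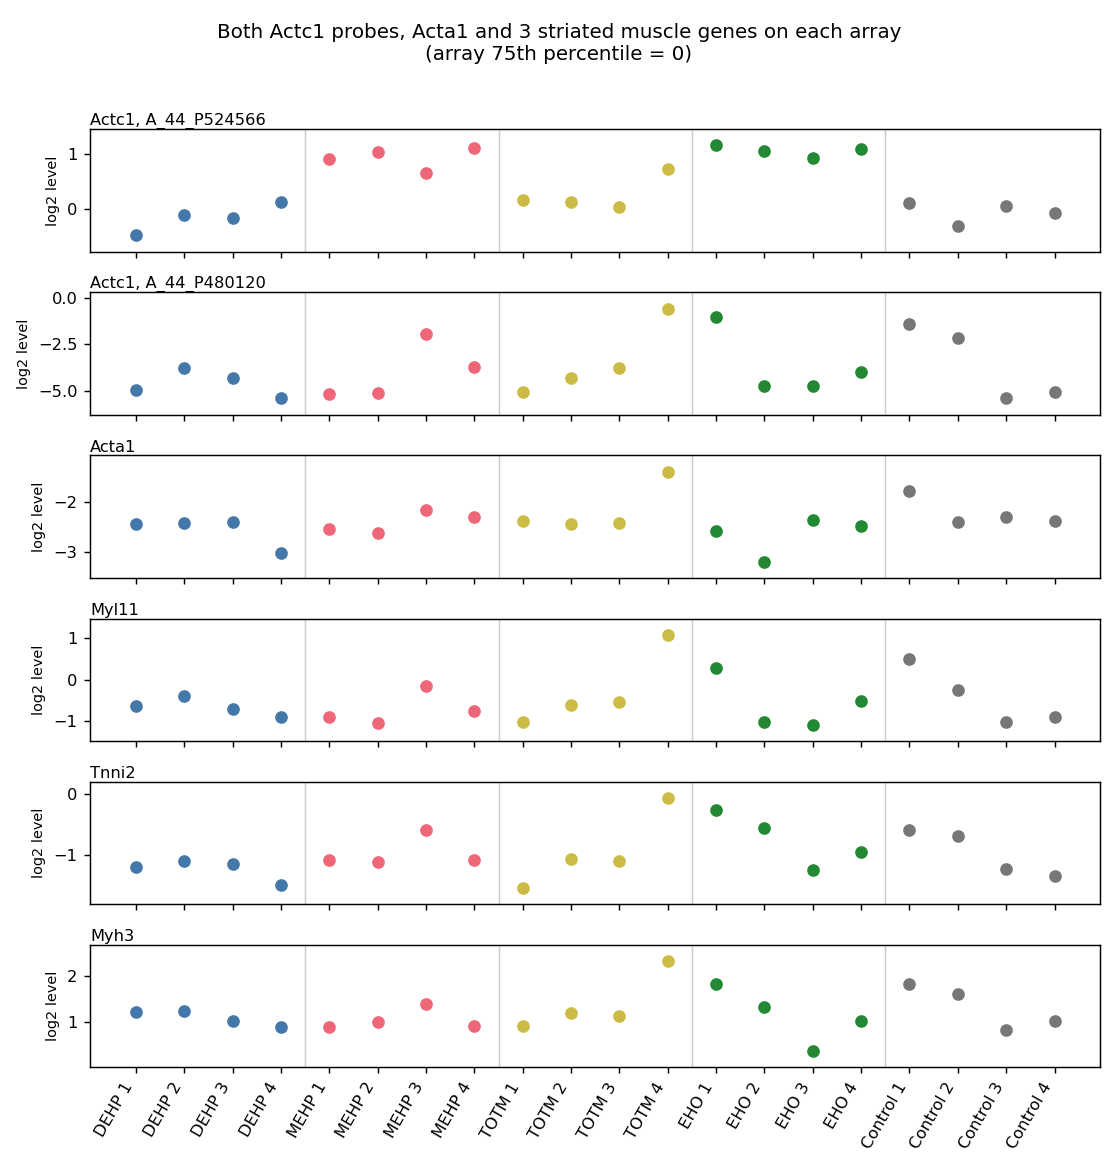
Levels of both Actc1 probes, of Acta1 and of the striated muscle genes Myl11, Tnni2 and Myh3 (probe A_44_P271442) on each array, in log2 units with the array 75th percentile at 0. The second Actc1 probe and Myl11 are highest on MEHP 3, TOTM 4, EHO 1 and Control 1 and 2, while the brighter Actc1 probe is high on all EHO and MEHP arrays.

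Some probes outside the naming rule are described in the files as similar to members. The probe named RGD1560119_predicted, described in the files as similar to skeletal muscle alpha-actin 1 and placed on chromosome X, stood at -0.53, -0.51, -0.24 and -0.11 in EHO testes and -0.11, -0.10, -0.13 and 0.19 in MEHP testes, against -1.22, -1.50, -1.07 and -0.81 in Control testes. It rose in EHO by 0.80 ± 0.16 (adjusted p = 0.00808). LOC360902, described as similar to enteric gamma-actin 2, rose in EHO by 0.42 ± 0.12 (adjusted p = 0.028), with no overlap of the arrays. In EHO 6.75% of all genes rose, and for 6.5% of genes complete on all arrays every EHO array was above every Control array. Before scaling the groups overlapped on both probes. LOC360902 signals were 1954, 2066, 2378 and 2098 on EHO arrays and 2129, 1809, 2458 and 2423 on Control arrays. Those of RGD1560119_predicted were 141.4, 144.5, 212.6 and 227.6 on EHO arrays and 147.6, 94.27, 142.7 and 195.7 on Control arrays. These EHO calls were not recomputed under other settings. Whether these probes also catch transcripts of Actc1 or Actg2 was not tested. LOC686149, described as similar to the aortic smooth muscle actin, was not well above background on any array.
Myosin-11, the smooth muscle myosin heavy chain, was read by 2 probes under a transcript accession. The brighter one, A_44_P489468, was at 0.20, 0.55, -0.26 and 0.39 in EHO testes and 0.52, 0.65, -1.15 and 0.36 in MEHP testes, against -0.31, -0.98, 0.42 and -0.13 in Control testes, and its EHO difference of 0.47 ± 0.35 was not called (adjusted p = 0.308). The dimmer probe, A_44_P274021, was at -2.74, -2.51, -2.19 and -2.17 in EHO testes, below the -1.86, -1.18, -1.89 and -1.93 of Control testes. It was not well above background on EHO replicate 1 and was not tested. The 2 probes thus differed in direction in EHO, with no call on either. On the dimmer probe the other compounds were below Control as well. The highest DEHP, MEHP and TOTM arrays stood at -2.113, -1.933 and -1.952, against -1.926 on the lowest Control array. In DEHP, 2.79% of genes complete on all arrays did not overlap Control in either direction. The shares lying wholly below Control are not given here for any compound.

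The authors' deposited table, which lists only probes that passed their own limit, gave Actc1 a fold change of 1.91 (p = 3.7e-07), Des 1.495 (p = 0.00547) and Actg2 1.43 (p = 0.00203) in its block headed EH. That block ran closest to the EHO contrast computed here, with a correlation of 0.917 across its probes, and its header is not spelled EHO. For MEHP the authors' deposited table gave Actc1 1.8 (p = 5.98e-05) and the brighter Myosin-11 probe 1.9 (p = 0.00675). The fit used here gave that Myosin-11 probe a smaller MEHP difference from Control, 0.18 ± 0.38 (SE), or 1.13-fold. Actg2, with a MEHP difference of 0.70 here, was not listed in the authors' MEHP block. The reason for these differences was not tested. The authors' deposited table listed none of the 6 members for DEHP or TOTM.

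Among 26 other measured genes of smooth muscle contraction and the cytoskeleton, 3 rose in EHO testes and none fell, where 6.75% of all genes rose and 18.1% fell. They were Mylk, the kinase that phosphorylates myosin light chain (0.45, adjusted p = 0.0424), Tpm1, a tropomyosin (0.57, adjusted p = 0.0303), and Pdlim5, a scaffold of the actin cytoskeleton (0.41, adjusted p = 0.0393). The EHO calls of single genes outside the members, on this list and those below, were not recomputed under other settings. Over all genes, 24.9% were called in EHO, and 0.914% without EHO replicates 1 and 2. The list's median difference was 0.15, against -0.17 over all genes. Filamin A (Flna, 0.75), Actn1 (0.48) and Tagln2 (0.42) were not called, with adjusted p of 0.0622, 0.0744 and 0.0511. In DEHP and TOTM testes none of the 26 was called, with list medians of 0.03 in both.

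Of 12 measured regulators of these genes, Tgfb3, a transforming growth factor (0.62, adjusted p = 0.0212), and Tgfb1i1, a focal adhesion coactivator (0.77, adjusted p = 0.038), rose in EHO testes. Elk1, a partner of serum response factor (-1.21, adjusted p = 0.0438), and the receptor gene Tgfbr1 (adjusted p = 0.0107) fell. Over all genes, 6.75% rose in EHO and 18.1% fell. Elk1 was well above background on 3 of 4 EHO arrays. Tgfbr1 was so on 0 of 4 EHO and 4 of 4 Control arrays, and against the lowest signal well above background on each EHO array, or its own where higher, it was at least 1.37-fold lower in EHO. Srf itself differed by 0.03 and its coactivator Myocd by 0.24, with adjusted p of 0.902 and 0.656. None of the 12 was called in DEHP or TOTM testes.

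Of 7 peritubular markers from outside the set, Nid1, a basement membrane protein, rose in EHO testes (1.05, adjusted p = 0.0235), while Ptch1, Gli1, Nes, Tpm4, Fn1 and Lama2 were not called. Beside this list and the marker lists that follow, 6.75% of all genes rose in EHO and 18.1% fell. The summed level of the 7 was between 34.7 and 45.8 in EHO and 24.8 and 36.2 in Control. Of 10 pericyte and vascular smooth muscle markers, the receptor gene Notch3 rose in EHO (0.46, adjusted p = 0.0261), and the pericyte gene Rgs5 fell in EHO (-0.57, adjusted p = 0.0141). The Notch3 difference in MEHP was 0.62. Of 11 interstitial and fibroblast markers, 7 could be tested on their brightest probe, and Nr2f2 (0.59), Dlk1 (0.63) and Lum (1.10) rose in EHO, with adjusted p of 0.0372, 0.029 and 0.0388. Over the 10 of the 11 that had a probe with values on all arrays, the summed level was between 87.6 and 146 in EHO, above the 51.8 to 83.9 of Control. These sums are in multiples of each array's 75th percentile, which was lower on every EHO array than on every Control array. The sums were not compared before scaling. The summed level of 6 of the 8 Leydig markers was between 61.6 and 87.9 in DEHP, 28.4 and 185 in MEHP, 112 and 148 in TOTM and 74.6 and 128 in EHO, against 128.9 and 184.8 in Control. It lay below Control on all DEHP and EHO arrays. Of these markers Lhcgr, the gene of the luteinizing hormone receptor, fell in EHO (-0.94, adjusted p = 0.0372) with 1 of 4 EHO arrays well above background. The part of these cell types in the EHO levels of Actc1, Actg2 and Des was not tested.

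Of 29 measured striated muscle genes, 9 fell and 1 rose in EHO testes, where 18.1% of all genes fell and 6.75% rose, with a list median of -0.46 against -0.17 over all genes. Mb, the gene of myoglobin, rose in EHO (0.60, adjusted p = 0.00759), and its difference in MEHP was 0.59. Myl3 and Neb, a myosin light chain of slow muscle and heart and the filament ruler nebulin, were among those that fell, and both were lowest on EHO replicates 1 and 2, at -2.93 and -1.52 for Myl3 and -4.91 and -3.21 for Neb. Myl3 was well above background on 3 of 4 EHO arrays and Neb on 2, and of the 9 genes that fell 2 were so on all 4 EHO arrays. Beta-actin (Actb) has no Control value on its brightest probe, whose spots were marked as non-uniform on all 4 Control arrays, and so was not tested. On its other probe, A_44_P423803, it stood at 6.79, 6.65, 6.49 and 6.61 in EHO testes, against 5.83, 5.97, 6.11 and 5.51 in Control testes, with no overlap. Every EHO array was above every Control array for 6.5% of genes complete on all arrays. TOTM arrays, at 6.34, 6.23, 6.46 and 6.5, were also above all Control arrays on this probe. DEHP arrays, at 5.93, 6.3, 6.4 and 6.54, and MEHP arrays, at 6.26, 6.34, 6.02 and 6.37, overlapped the Control arrays. Spots marked as non-uniform made up 1.06% to 1.08% of each Control array and at most 0.021% of any other array. The list genes Myl9, Col1a1, Col1a2, Col3a1 and Cyp17a1 also had no EHO difference from Control on the probe chosen for them.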

How the data were processed

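The 20 array files hold intensity values of a 1-colour rat array, read with Agilent Feature Extraction 9.5.3.1 and placed on rn4, per the file headers. The submitters' processing notes name Feature Extraction 9.5. Levels were taken from the deposited processed signal, an intensity from which the background is already subtracted. The authors' deposited table gives a signed fold score and a p-value per probe and compound, with the test not given in the sources used here.

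Here, spots marked as outliers were set aside, repeated spots of 1 probe were averaged as log2 intensity of the deposited signals, and each array's 75th percentile over all spots was subtracted. Probes well above background on all arrays of at least 1 group were kept (28129), with the brightest probe per gene (24273 genes, 23953 of them with Control values). limma 3.58.1 in R 4.3.3 (files read with the data.table package, version 1.17.8) fitted 1 mean per group over 19 samples, with Benjamini-Hochberg adjustment, and calls were made at an adjusted p under 0.05. The p-values measure the spread between litter pools, and the number of arrays limits precision.

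The members and gene lists were chosen with earlier results of these data known. Text names all members with probes, up to 4 genes per list with the largest differences or those called, and the 5 named genes most like Actc1. Symbols come from RefSeq through accessions of 10768 probes, and coordinates on rn4 are as the files give them. No rn4 annotation was used here, so exons and UTRs under the probes are not named. Samples with equal replicate numbers did not deviate together (correlations from -0.763 to 0.422, with 16 of 40 pairs over 0.1), so the numbers do not pair samples. The fit was checked on simulated data with known differences in DEHP, TOTM or EHO against Control. It recovered 55%, 58% and 61% of log2 differences of 1, and 90%, 88% and 89% of those of 2. Genes without a difference made up 6.45%, 10.4% and 10.2% of its calls. The simulated noise was normal, with the same spread in every group of a gene. In the fit with arrays weighted, EHO replicates 1 and 2 had the lowest weights, 0.0643 and 0.149. The rates with unequal spread between groups or arrays, as in EHO, were therefore not checked. Alternatives were other scalings, filters, variance models, sample sets and each array left out in turn.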

Additional observations from a re-analysis of the deposited data

Results flagged for a closer look

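Within the groups of 4 arrays, 28 sets of values (7 member probes in DEHP, TOTM, EHO and Control testes) were searched for a single array far from the others by Dixon's ratio, and 3 passed its 95% critical value for 4 samples. All 3 were of Acta1. In DEHP testes replicate 4 stood apart at the low end, at -3.02, and the nearest array was at -2.45. In TOTM testes replicate 4 stood apart at the high end, at -1.40, with the nearest at -2.38. In Control testes replicate 1 stood apart at the high end, at -1.78, with the nearest at -2.31. Chance alone flags about 1 set in 20. The second Actc1 probe and Myl11 were also high on TOTM replicate 4 and Control replicate 1, and the part of striated muscle RNA in these Acta1 values was not tested.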

How the results depend on the processing

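Of 36 tested member differences, each recomputed under up to 36 settings, none that was called in either fit turned its sign, and 35 values of uncalled differences did. Among these were Acta1 in EHO against Control (-0.44), which was 0.03 under normexp with quantile normalization, 0.12 under quantile normalization and 0.10 under median scaling, Acta1 in EHO against TOTM (-0.50), which was 0.02 under quantile normalization, and Cnn1 in EHO against TOTM (-0.48), which was 0.002 under median scaling. No member was called in DEHP or TOTM testes under any setting. The member count in EHO testes was 3. It was 1 with arrays weighted, 0 when only EHO and Control arrays were fitted and 1 without EHO arrays 1 and 2, and it ran from 1 to 4 with each array left out in turn. The EHO call of Actc1 was lost only when those arrays alone were fitted (1.13, adjusted p = 0.0669). The count over the 3 compound pairs was 2, and it was 1 without EHO arrays 1 and 2 and ran from 2 to 6 with each array left out.

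The count of all genes called in DEHP testes was 1. It was 17 under normexp with quantile normalization, 10 under quantile normalization, 0 under median scaling, 10 with the percentile over detected probes, 71 with outlier spots kept, 0 with the percentile over unmarked spots (an alternative chosen after seeing the data), 0 without the filter, 5 with the filter on all arrays, 0 with every probe tested, 33 with arrays weighted, 15 with only DEHP and Control arrays fitted, 0 without EHO arrays 1 and 2, 14 without MEHP arrays 3 and 4, and 0 to 9 with each array left out. In MEHP testes it was 235, and 363 under normexp with quantile normalization, 79 under median scaling, 3302 with arrays weighted, 127 with only MEHP and Control arrays fitted, 357 without EHO arrays 1 and 2, 135 without MEHP arrays 3 and 4, and 147 to 271 with each array left out. In TOTM testes it was 2, and 81 under normexp with quantile normalization, 53 under quantile normalization, 0 under median scaling, 32 with the percentile over detected probes, 99 with outlier spots kept, 46 with the percentile over unmarked spots, 1 without the filter, 49 with the filter on all arrays, 20 under a trended robust variance, 79 with arrays weighted, 23 with MEHP 1 and 2 separate, 35 without EHO arrays 1 and 2, 0 without MEHP arrays 3 and 4, and 0 to 26 with each array left out. In EHO testes it was 5954, and 10560 without the filter, 2173 with the filter on all arrays, 741 with arrays weighted, 3 with only EHO and Control arrays fitted, 219 without EHO arrays 1 and 2, 3317 without MEHP arrays 3 and 4, and 734 to 10480 with each array left out. The causes were not tested, beyond the fewer genes or arrays that some settings hold.

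Scaling moved the share of EHO calls that were higher, which was 27.2%, to 69.4% under median scaling, 45.5% under quantile normalization and 11.9% with the percentile over detected probes. The median over all genes moved to 0.37 in EHO under median scaling.

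With the replicate number as a block and MEHP 1 and 2 separate, the counts were 0 in DEHP, 275 in MEHP, 25 in TOTM and 4049 in EHO, and the replicate block changed no member call. Slide as a block could not be fitted, since each group had its own slide. Signal over background limits Acta1 and the second Actc1 probe.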
